A study of Mus musculus with 36 samples.

Results

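Fatty acid oxidation burns fatty acids for energy in mitochondria and peroxisomes, and PPAR-alpha is the nuclear receptor that switches many of its genes on. The 34 genes described here were chosen by symbol: the receptor gene Ppara, 24 genes of the oxidation steps and 9 genes known to respond to PPAR-alpha. Each of the 34 was found in both deposited tables through its NCBI gene number, among 19001 genes in the paired-end table and 17697 in the single-end table. The rule uses no measured value, but members and lists were chosen with earlier results of these data known. Shares of members set beside shares of all genes are therefore descriptions, not independent tests.

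Total RNA from mouse liver, spleen and thymus was sequenced in 36 libraries that fall into 12 groups of 3 by their titles. In the paired-end table, 3 untreated and 3 X-irradiated (2 Gy, taken after 3 h) wild type (wt) libraries represent each tissue. In the single-end table, 3 libraries titled d24 and 3 titled wt represent each tissue, and every title says X-ray; the series describes mice whose p53 lacks its C-terminus beside mice with wild type p53. The labels of the single-end libraries contradict each other: 9 of the libraries titled X-ray carry the treatment entry control (d24 liver, d24 thymus and wt spleen), and the 9 titled d24 carry the cell type entry WT. Groups below follow the titles. The labels give no strain, age, sex or litter, and do not say that the 3 libraries of a group came from separate animals, so the p-values measure the spread between these libraries, which may be technical.

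A fatty acid is tied to coenzyme A by Acsl1 and enters mitochondria on carnitine through Cpt1, the carrier Slc25a20 and Cpt2. It is then shortened in repeated cycles by acyl-CoA dehydrogenases (Acadm, Acadl, Acadvl, Acads and Acad11), by a hydratase and dehydrogenase (Hadha), by a dehydrogenase (Hadh) and by thiolases such as Hadhb and Acaa2. Etfa, Etfb and Etfdh pass the electrons on to the respiratory chain. Eci1, Eci2 and Decr1 handle unsaturated chains, and Ehhadh, Hsd17b4, Acaa1a and Acaa1b work in peroxisomes. In liver, PPAR-alpha raises this pathway during fasting, when fatty acids flow in from fat tissue, together with Pdk4, Acot1, Acot2, Cyp4a10, Cyp4a14, Plin2, Lpin1 and Fabp1. Cpt1c, Acad11 and Lpin1 have also been described as genes that p53 can activate.

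Promoters are shown for the 3 members described as p53 responsive, whose levels the X-ray results below turn on, and for Fabp1, the single member whose promoter held a PPAR-type repeat. They are reference sequence from RefSeq (GRCm38.p6), 5′ to 3′ on the strand of the gene. Each lies within the 250 bases before an annotated start and is cut where an annotated exon begins. Capitals mark AGGTCA, the core letters that nuclear receptors bind, or the DR1 repeat (a pair of AGGNCA 1 base apart), on either strand.
Fabp1, chr6:71199629-71199826, plus strand: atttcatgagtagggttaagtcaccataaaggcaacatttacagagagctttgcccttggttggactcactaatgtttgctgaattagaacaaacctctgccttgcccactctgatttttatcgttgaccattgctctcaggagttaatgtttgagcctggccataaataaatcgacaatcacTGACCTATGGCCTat
Cpt1c, chr7:44974881-44975101, minus strand: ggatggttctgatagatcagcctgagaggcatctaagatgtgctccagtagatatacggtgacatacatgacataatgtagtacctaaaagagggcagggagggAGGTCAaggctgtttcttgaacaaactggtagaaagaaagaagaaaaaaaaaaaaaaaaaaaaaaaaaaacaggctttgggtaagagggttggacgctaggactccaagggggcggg
Acad11, chr9:104063521-104063685, plus strand: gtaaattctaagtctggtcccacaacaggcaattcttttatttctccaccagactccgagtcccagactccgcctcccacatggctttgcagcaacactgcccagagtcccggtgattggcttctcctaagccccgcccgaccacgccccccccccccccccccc
Lpin1, chr12:16610967-16611216, minus strand: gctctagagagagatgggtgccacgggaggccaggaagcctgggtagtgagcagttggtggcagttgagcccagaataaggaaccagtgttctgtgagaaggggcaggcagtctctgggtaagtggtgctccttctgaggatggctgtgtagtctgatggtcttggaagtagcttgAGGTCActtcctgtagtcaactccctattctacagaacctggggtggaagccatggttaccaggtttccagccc
The Fabp1 stretch holds the repeat as TGACCTATGGCCT, read on the opposite strand, at 67 to 55 bases before the start. The Cpt1c stretch holds AGGTCA at 146 to 141 bases before the start, the Lpin1 stretch holds it at 74 to 69, and the Acad11 stretch has no capitals. The Lpin1 stretch lies inside the annotated span of its gene (chr12:16535669-16653903), so the start it precedes is an internal one. A promoter was found for 28 of the 34 members, in 29 entries. The DR1 repeat, which can overlap AGGTCA, was in 1 member's promoter and in 0.338% of 32851 promoters of all genes. AGGTCA was in the promoters of 7 members (Acadm, Acadvl, Cpt1a, Cpt1c, Fabp1, Lpin1 and Plin2) and in 14% of all promoters. The p53 response element was found in 0 member promoters as a half-site, against 7.13% of all promoters, and in 0 as a full site, against 0.0639%. These matches describe the letters in these windows.

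In untreated wt mice the pathway was mainly a liver pathway, and the spread in level between tissues was widest for the receptor gene and its best known liver targets. With the authors' scaling, 32 of the 34 members were higher in every liver library than in every spleen library, where 45% of all genes were and 43% were lower, and 32 were higher in liver than in thymus, where 46% of all genes were. The median fold of liver over spleen was 10.9 over the 33 members that passed the filter on low values. Over thymus it was 12.4 for 32 members. The authors' composition factor makes the totals of liver libraries larger than those of the other tissues, and without it the median folds were 5.26 and 3.88, with 29 and 30 members higher, against 25.2% and 19.8% of all genes.

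Ppara, the receptor gene, had a normalised signal of 421, 403 and 277 in the 3 untreated liver libraries, 0.444, 0.218 and 0.304 in spleen and 1.58, 0.307 and 0.338 in thymus. Every liver library was far above the others, and spleen and thymus overlapped. Fabp1, the liver carrier of fatty acids, gave 6272, 8524 and 7880 in liver and between 0.452 and 4.47 in the other tissues. Cyp4a14, which hydroxylates the end of fatty acid chains, gave 720, 618 and 1582 in liver and at most 0.299 elsewhere. Outside liver each of these genes was at a very small share of its liver level.

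Per kilobase of transcript, which allows levels of different genes to be compared, the untreated liver mean was 13668 for Fabp1, 938 for Acaa2, 580 for Etfb, 548 for Etfa, 364 for Acsl1, 149 for Cpt1a, 108 for Ppara and 3.38 for Pdk4. In spleen the same scale gave 65.0 for Etfa, 44.3 for Acsl1, 20.8 for Cpt1a and 0.0943 for Ppara, and in thymus 51.9 for Etfa, 3.89 for Acsl1, 17.1 for Cpt1a and 0.217 for Ppara. The level of Etfb is uncertain, since it shares 67.3% of the 50-base windows of its transcript with another gene, Gm45233. The enzymes of the oxidation cycle were present in all 3 tissues, at lower levels outside liver.

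Cpt1c, the form of carnitine palmitoyltransferase best known from brain, had the opposite order: 0.782, 0.726 and 0.545 in liver, 3.03, 3.43 and 3.28 in spleen and 0.722, 0.416 and 0.662 in thymus. Spleen was the high tissue and did not overlap liver or thymus, which overlapped each other. Cpt1b, the muscle form, was near 0 in every untreated library (at most 11 reads). It shares 93% of the 50-base windows of its transcript with another gene, Gm44502, so its level is uncertain. Between spleen and thymus, 14 members were higher in spleen (40.9% of all genes), 10 were lower (38%) and 10 overlapped. Without the composition factor these were 6 higher, 21 lower and 7 overlapping, so the order of these 2 tissues rests on the scaling. With the authors' scaling Acsl1 was 11.4-fold higher in spleen than in thymus, the highest such fold among the members.

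**Figure D1:**
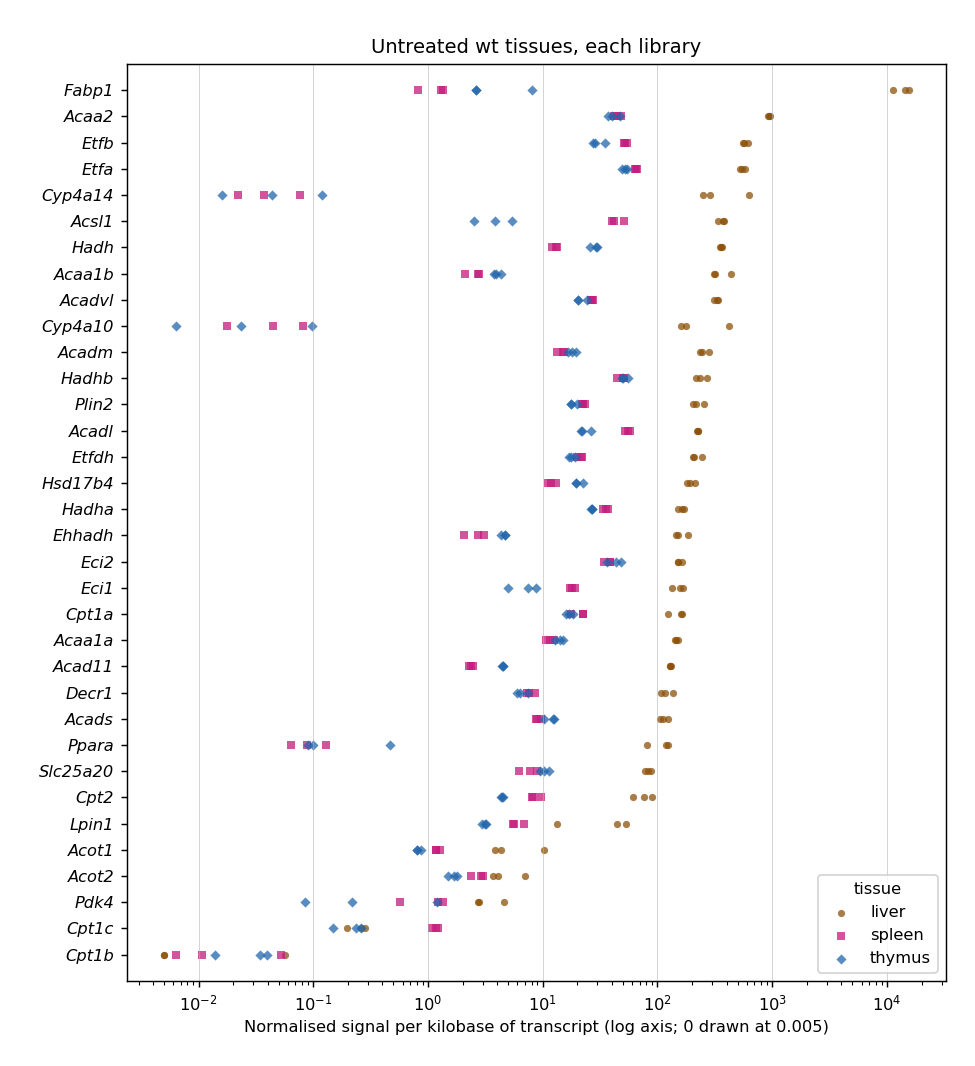
Normalised signal per kilobase of transcript of the 34 members (rows, by liver level) in each untreated wt liver, spleen and thymus library, on a log axis with 0 drawn at 0.005. The liver points lie to the right of the others for all members except Cpt1b and Cpt1c.

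The labelled tissues carried their own markers. In the paired-end table the 10 hepatocyte markers summed to between 390775 and 454585 in liver libraries, the 8 T cell markers to between 5549 and 7080 in thymus libraries, and the 6 B cell markers to between 1030 and 1452 in spleen libraries. Read totals were 44348579 to 81322683 in paired-end and 20481048 to 38042710 in single-end libraries. As a check of irradiation, Cdkn1a, the p53 target that halts the cell cycle, rose from between 3.74 and 16.1 in untreated wt libraries to between 97.7 and 162 in irradiated ones. In the single-end table its signal was 319, 416 and 384 in d24 spleen but 5.46, 7.36 and 9.37 in wt spleen, the libraries whose labels disagree on treatment. It was 17.7, 34.4 and 147 in wt liver, 360, 364 and 108 in d24 liver, 16.5, 11.3 and 16.1 in wt thymus and 25.8, 20.4 and 67.8 in d24 thymus.

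The next comparisons ask what 2 Gy of X-rays did to the members in wt tissues after 3 h. Differences are in log2(signal + 0.5), X-ray minus untreated, with the standard error and limma's p adjusted by Benjamini and Hochberg's method across every gene tested; a gene passed at an adjusted p under 0.05. A gene was tested where its signal was at least 1 in at least 3 of the 6 libraries. Xist, read here as a sign of female tissue, was above 100 in 1 untreated and 2 irradiated libraries of each tissue, under the same replicate numbers in all 3 tissues (1 untreated, 1 and 2 irradiated), so sex was not balanced in any X-ray comparison. In RNA from whole tissue, fewer cells of a type and less RNA per cell cannot be told apart.

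In irradiated spleen a larger share of members than of all genes fell, while the share that rose was near that of all genes. Of 29 members tested, 13 fell (44.8%) and 5 rose (17.2%), against 20.4% and 19.5% of all genes tested (40% in either direction). The groups did not overlap for 24 members, against 53.3% of all genes, 20 had an unadjusted p under 0.05, against 49.7%, and 10 differences were above 0, against 47.5%. The median over members was -0.25, against -0.03 over all genes. When untreated replicate 2 was left out 7 members fell, as did 8 each when untreated replicate 1 or irradiated replicate 3 was left out. The shares of all genes at those settings are not given here, so whether members lost calls more than other genes is not shown. The falls ran along the pathway: 2 of the 4 tested carnitine shuttle genes fell, with 3 of the 5 acyl-CoA dehydrogenases, 3 of the 4 genes of the hydratase, dehydrogenase and thiolase steps, 2 of the 3 genes for unsaturated chains, 2 of the 3 electron transfer genes and 1 of the 4 peroxisomal genes. Among the PPAR-alpha responsive members, 3 of the 6 tested rose and 0 fell. Ppara was not tested in spleen, because its signal was at most 0.592 in every library.

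Cpt1a, which admits long fatty acids into mitochondria and sets the pace of oxidation in most tissues, went from 96.2, 97.1 and 75.9 to 44.3, 32.4 and 56.9, a difference of -1.03 ± 0.20 (SE, n = 3 and 3, limma adjusted p = 0.00401). Each irradiated library was below each untreated one. Ehhadh, a peroxisomal enzyme with 2 activities in the cycle, went from 8.06, 9.08 and 6.11 to 3.51, 4.29 and 3.87 (-0.90 ± 0.16, limma adjusted p = 0.00276). The groups did not overlap and the irradiated libraries were close together.

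Eci2, an isomerase for unsaturated chains, went from 67.6, 67.8 and 59.5 to 42.6, 38.5 and 38.3 (-0.70 ± 0.11, limma adjusted p = 0.00151). Etfa, a subunit of the electron transfer flavoprotein, went from 91.7, 89.3 and 90.4 to 62.7, 52.3 and 56.8 (-0.66 ± 0.11, limma adjusted p = 0.00192). Decr1, the reductase for unsaturated chains, went from 22.6, 25.1 and 21.5 to 16.1, 14.8 and 15.5 (-0.56 ± 0.11, limma adjusted p = 0.00386). All 3 genes separated the groups without overlap and varied little within a group. The other members that fell were Hadh, Acadl, Etfdh, Acaa2, Hadhb, Cpt2, Acadm and Acadvl, with differences from -0.58 to -0.33. Of these, Hadh and Etfdh passed whichever library was left out. Acadl, Acaa2, Hadhb, Cpt2, Acadm and Acadvl did not always: Acadm, for example, was at -0.36, -0.35 and -0.41 when untreated replicate 1, untreated replicate 2 or irradiated replicate 3 was dropped (limma adjusted p = 0.0765, 0.076 and 0.0529). Reads of Etfdh cannot be cleanly parted from Ppid, a gene that overlaps it, where strand was not used, and Ppid reached 77.7 in untreated and 38.3 in irradiated spleen; whether strand was used in counting is not given in the sources used here. Hadhb shares 62.4% of its 50-base windows with other transcripts, mostly of the copy Gm13910, so its level is uncertain.

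Cpt1c rose most in spleen, from 3.03, 3.43 and 3.28 to 29.3, 17.9 and 19.1 (2.56 ± 0.18, limma adjusted p = 3.41e-05). The lowest irradiated library was above all untreated ones by a wide margin, and replicate 1 was the highest. Acad11, a member of the acyl-CoA dehydrogenase family, went from 8.19, 8.50 and 7.89 to 14.2, 13.9 and 12.4 (0.68 ± 0.11, limma adjusted p = 0.00171). Acot1, a thioesterase that frees fatty acids from coenzyme A, went from 2.65, 2.65 and 2.88 to 4.33, 6.46 and 6.92 (0.97 ± 0.17, limma adjusted p = 0.00291). Neither gene's groups overlapped. Acot1 shares 33.6% of its 50-base windows with other genes, chiefly Acot2, and the split of reads between them is uncertain.

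Lpin1, a phosphatidate phosphatase that also acts as a nuclear coactivator, went from 30.5, 38.3 and 31.6 to 47.3, 48.0 and 46.0 in spleen (0.49 ± 0.11, limma adjusted p = 0.00956). Pdk4, the kinase that shuts pyruvate out of oxidation, went from 4.29, 4.75 and 1.99 to 5.6, 12.6 and 13.3 (1.38 ± 0.35, limma adjusted p = 0.0147). Both genes separated the groups, but for Pdk4 irradiated replicate 1 lay close to the untreated libraries. In a fit of all 18 paired-end libraries Pdk4 and Lpin1 did not pass, leaving 3 members higher, and without irradiated replicate 3 Pdk4 was at 1.17 (limma adjusted p = 0.0679).

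Genes next to the pathway were counted from lists that hold no member. Of all genes tested in irradiated spleen, 19.5% rose and 20.4% fell. In irradiated spleen 13 of 17 genes of the citric acid cycle and respiratory chain fell and 0 rose, with a median of -0.52, led by Cs (-0.89), Idh3a (-0.86) and Fh1 (-0.84), enzymes of the citric acid cycle. Of 5 ketone body genes 4 fell, among them Oxct1 (-0.83) and Bdh1 (-0.76), which let cells use and interconvert ketone bodies. Of 11 nuclear receptor partners and cofactors 5 rose, among them Pparg (1.62) and Nr1h3 (1.59). Of 15 further PPAR-alpha responsive genes 3 rose (Angptl4 at 0.72, Txnip at 0.54 and Cd36 at 0.51) and 2 fell (Abcd3 at -0.40 and Ech1 at -0.35). Those shares, 20% and 13.3%, were near and below the shares of all genes. Of 12 fatty acid synthesis genes 5 rose, such as Dgat2 (1.41) and Scd2 (1.21), and 2 fell, Elovl6 (-1.08) and Gpam (-0.64).

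Markers of other cells moved in the same spleen libraries. All 7 macrophage markers tested, of 8 listed, rose, and their summed signal was 448 to 605 in untreated and 761 to 1185 in irradiated libraries. All 9 hepatocyte markers tested, of 10 listed, rose, with sums of 116, 121 and 153 untreated and 161, 722 and 636 irradiated, so that replicate 1 stayed near the untreated libraries. Erythroid sums were 49322 to 73510 untreated and 79895 to 122875 irradiated, with 0 of 9 markers passing and 1 at an unadjusted p under 0.05. Sums of B cell markers were 1057 to 1253 and 1030 to 1452, and of T cell markers 155 to 172 and 155 to 181, with overlap in both. Single markers still moved: 2 of 6 B cell markers rose and 1 fell (differences from -0.42 to 1.34). Among 8 T cell markers 1 rose and 1 fell (from -1.63 to 0.39). Of all genes tested, 19.5% rose and 20.4% fell. The part of these cells in the members' differences was not tested.

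In irradiated thymus the members that passed all rose. Of 31 tested, 9 rose and 0 fell, against 9.77% and 11.6% of all genes (21.3% in either direction). An unadjusted p under 0.05 was found for 13, against 36.4% of all genes, and groups without overlap for 13, against 40.6%. All 31 differences were above 0, against 51.3% of all genes tested, with a median of 0.39 against 0.01. Of the 7 tested PPAR-alpha responsive members 4 rose, with 2 of the 4 peroxisomal genes, 2 of the 5 acyl-CoA dehydrogenases and 1 of the 4 carnitine shuttle genes. In the 3 remaining step groups, 0 of 10 members passed in limma and 1 had an unadjusted p under 0.05.

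Lpin1 was the member with the smallest p, from 16.6, 17.6 and 17.9 to 59.3, 60.2 and 59.3 (1.75 ± 0.07, SE, n = 3 and 3, limma adjusted p = 6.67e-07). Its libraries were nearly level within each group and far apart between groups. Acad11 went from 15.3, 15.5 and 15.4 to 33.8, 29.4 and 33.1 (1.04 ± 0.09, limma adjusted p = 6.91e-05). Its reads cannot be cleanly parted from those of Ackr4, a gene that overlaps it, where strand was not used. Ackr4 reached 5.61 in untreated and 8.31 in irradiated thymus, and 0.592 and 1.70 in spleen. Cpt1c went from 0.722, 0.416 and 0.662 to 2.65, 2.68 and 3.06 (1.59 ± 0.17, limma adjusted p = 0.000328). It reached the filter on low values through the irradiated libraries alone, so whether it was tested depended on the irradiated values: leaving it aside, 8 of 30 rose, and with no filter it was at 1.59 (limma adjusted p = 0.000769). Acot1 went from 1.82, 1.83 and 1.97 to 4.12, 5.24 and 5.97 (1.23 ± 0.15, limma adjusted p = 0.000957). Lpin1, Acad11, Cpt1c and Acot1 each rose without overlap in spleen as well, and they were the members that rose in both tissues.

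Plin2, which coats lipid droplets, went from 37.9, 33.2 and 33.6 to 60.6, 48.1 and 63.6 in thymus (0.70 ± 0.11, limma adjusted p = 0.00303). Acot2, the mitochondrial thioesterase, went from 3.90, 3.69 and 3.27 to 5.97, 6.69 and 6.48 (0.74 ± 0.12, limma adjusted p = 0.00384). The irradiated libraries were above the untreated ones for both. Acads, the short-chain dehydrogenase, went from 23.4, 22.8 and 19.0 to 30.9, 28.2 and 27.4 (0.40 ± 0.10, limma adjusted p = 0.0223). Acaa1a, a peroxisomal thiolase, went from 26.5, 24.9 and 22.6 to 30.0, 31.4 and 33.2 (0.35 ± 0.09, limma adjusted p = 0.0233). These are smaller differences with small gaps between the groups. The close copy Acaa1b had 0.60 ± 0.16 (limma adjusted p = 0.0276), and the copies share 34% and 35.5% of their windows, so reads may be split between them. The calls of Acads, Acaa1a and Acaa1b ended without untreated replicate 3 (0.31, 0.29 and 0.56), and each also ended without at least 1 irradiated library.

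Ppara was 1.58, 0.307 and 0.338 in untreated and 7.64, 0.323 and 2.38 in irradiated thymus (1.26 ± 0.69, limma adjusted p = 0.221). The groups overlapped, since irradiated replicate 2 sat at the untreated level and replicate 1 far above it; without irradiated replicate 2 the difference was 2.11 (limma adjusted p = 0.0198). Pdk4 had the same uneven shape, with 4.14, 0.297 and 0.757 untreated and 29.4, 0.88 and 2.84 irradiated (1.63 ± 0.99, limma adjusted p = 0.265). The 3 irradiated libraries also differed over the members as a group. Set against the untreated mean, replicate 1 had a member median of 0.76 with 31 of 31 above 0, replicate 2 had 0.11 with 18 of 31 and replicate 3 had 0.33 with 26 of 31.

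Brown fat markers stood apart in the same library. Ucp1, the defining uncoupling protein of brown fat, was 176 in irradiated replicate 1, 0.142 and 0.0115 in replicates 2 and 3, and 19.0, 0.0892 and 0.0811 in untreated thymus. The 7 brown adipocyte markers summed to 35.0, 3.08 and 3.89 untreated and 260, 3.12 and 4.02 irradiated, but 0 of the 1 tested passed. White adipocyte sums (8 markers, 0 of 7 tested passing) were 108, 46.9 and 227 and then 447, 68.7 and 144, and hepatocyte sums (0 of 10 passing) were 257, 79.1 and 122 and then 119, 185 and 1789. Macrophage markers rose in 4 of 6 tested, with sums of 205 to 261 and then 273 to 400. Thymic epithelium markers rose in 4 of 7, with sums of 420 to 444 and then 660 to 785. Of all genes tested, 9.77% rose. Without irradiated replicate 1, 8 members rose, without replicate 2 11 did and without replicate 3 6 did; leaving out any irradiated library took Cpt1c out of the test, because fewer libraries then reached the filter. Without untreated replicate 3, 6 members rose. The shares of all genes that passed with a library left out are not given here. The part of these cells in the differences was not tested beyond these values.

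**Figure D2:**
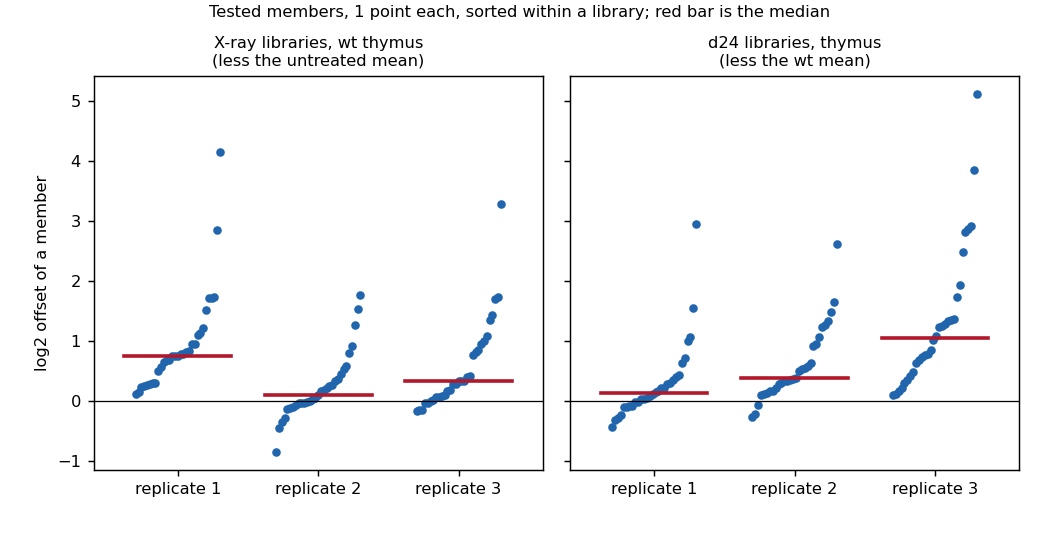
Each dot is a member tested in thymus, as log2(signal + 0.5) of 1 library minus the mean of the comparison group (untreated wt on the left, wt titled X-ray on the right), and red lines are medians. The medians are 0.76, 0.11 and 0.33 in the irradiated wt libraries and 0.14, 0.38 and 1.06 in the d24 libraries.

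The lists next to the pathway were counted in thymus too, where 9.77% of all genes rose and 11.6% fell. Of the 17 citric acid cycle and respiratory chain genes 0 passed in limma, 2 had an unadjusted p under 0.05, and the median was -0.08. Of 18 further PPAR-alpha responsive genes 3 rose (Txnip at 1.05, Mlycd at 0.60 and Retsat at 0.46) and 0 fell. Of 11 nuclear receptor partners 3 rose (Pparg at 1.12, Nr1h3 at 0.89 and Esrra at 0.55) and 1 fell (Med1 at -0.31). Of 9 genes that respond to glucocorticoid, a stress hormone, 7 rose, such as Dusp1 (1.34), Mt1 (1.14) and Tsc22d3 (0.94), where 9.77% of all genes rose. In irradiated spleen 4 of these 9 rose and 2 fell, against 19.5% and 20.4% of all genes. The part of stress hormone in the members' differences was not tested.

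In irradiated liver, the tissue with the highest member levels, 0 of 33 members passed in limma, where 0.242% of all genes did (0.204% higher and 0.0377% lower). At an unadjusted p under 0.05 there were 10 members, against 21.9% of all genes. By edgeR 0 members were called, against 0.242% of all genes, and by DESeq2 2, against 4.76%. In a limma fit of all 18 paired-end libraries, which share 1 estimate of the spread, 6 members passed: Cpt1c (0.90, adjusted p = 0.00732) and Lpin1 (1.5, adjusted p = 0.018) were higher, and Acaa1a (-0.64), Plin2 (-0.86), Acaa1b (-0.60) and Acads (-0.53) were lower, with adjusted p between 0.0125 and 0.0401. The share of all genes that passed in that fit is not given here. In the fit of the liver libraries alone the median was -0.19, against -0.05 over all genes, and 11 of 33 differences were above 0, against 43.1% of all genes. The groups did not overlap for 6 members, against 27.4% of all genes. By role the medians ran from -0.42 for the peroxisomal genes to 0.01 for the PPAR-alpha responsive genes, leaving aside Ppara.

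Ppara in liver was 421, 403 and 277 untreated and 410, 447 and 437 irradiated (0.26 ± 0.16, limma adjusted p = 0.351), with overlapping groups. Acad11 was 445, 452 and 446 and then 475, 411 and 375 (-0.10 ± 0.12, limma adjusted p = 0.612), again overlapping. Cpt1c was 0.782, 0.726 and 0.545 and then 2.08, 1.58 and 1.47 (0.90 ± 0.20, limma adjusted p = 0.147; DESeq2 gave 1.38 and an adjusted p of 0.0131). Its groups did not overlap, but it reached the filter through the irradiated libraries alone and rests on 18 to 24 reads per untreated and 42 to 84 per irradiated library.

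Lpin1 in liver was 295, 246 and 74.8 untreated and 386, 809 and 396 irradiated (1.5 ± 0.50, limma adjusted p = 0.192). The groups did not overlap, and untreated replicate 3 and irradiated replicate 2 set the width of the spread; without untreated replicate 3 the difference was 0.88 (limma adjusted p = 0.331), and without irradiated replicate 2 it was 1.15 (limma adjusted p = 0.383). Plin2 was 385, 407 and 477 and then 336, 141 and 262 (-0.86 ± 0.28, limma adjusted p = 0.192), and Acaa1a was 253, 248 and 266 and then 215, 124 and 164 (-0.64 ± 0.18, limma adjusted p = 0.191). These 2 were named after their values were seen, and in both irradiated replicate 1 was nearest to the untreated libraries. That library was the highest of its group in 21 of 33 members. Without it 11 members were lower (Acadvl, Acads, Hadh, Acaa2, Acaa1a, Acaa1b, Eci1, Etfb, Etfdh, Plin2 and Fabp1), where 21.6% of all genes passed in either direction.

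In the same liver libraries 7 of 10 p53 targets rose, Cdkn1a by 2.97, against 0.204% of all genes. Tat, an enzyme of amino acid breakdown raised by fasting and stress hormone, rose by 1.39. It is from a list of 9 gluconeogenesis and fasting genes, of which 1 passed in limma and 4 had an unadjusted p under 0.05. The median of that list was -0.0005, with 5 of 9 differences below 0 and a range from -0.29 to 1.84. Of 26 further PPAR-alpha responsive genes 0 passed in limma and 4 had an unadjusted p under 0.05. The 16 clock genes (0 passing, 6 unadjusted) had a median of 0.68 and the 9 glucocorticoid responsive genes (0 passing, 4 unadjusted) one of 0.93. Whether time of day or feeding differed between the groups is not in the labels. The 9 erythroid markers (0 passing, 1 unadjusted) summed to 3958 to 6385 untreated and 1941 to 4883 irradiated, with overlap.

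**Figure D3:**
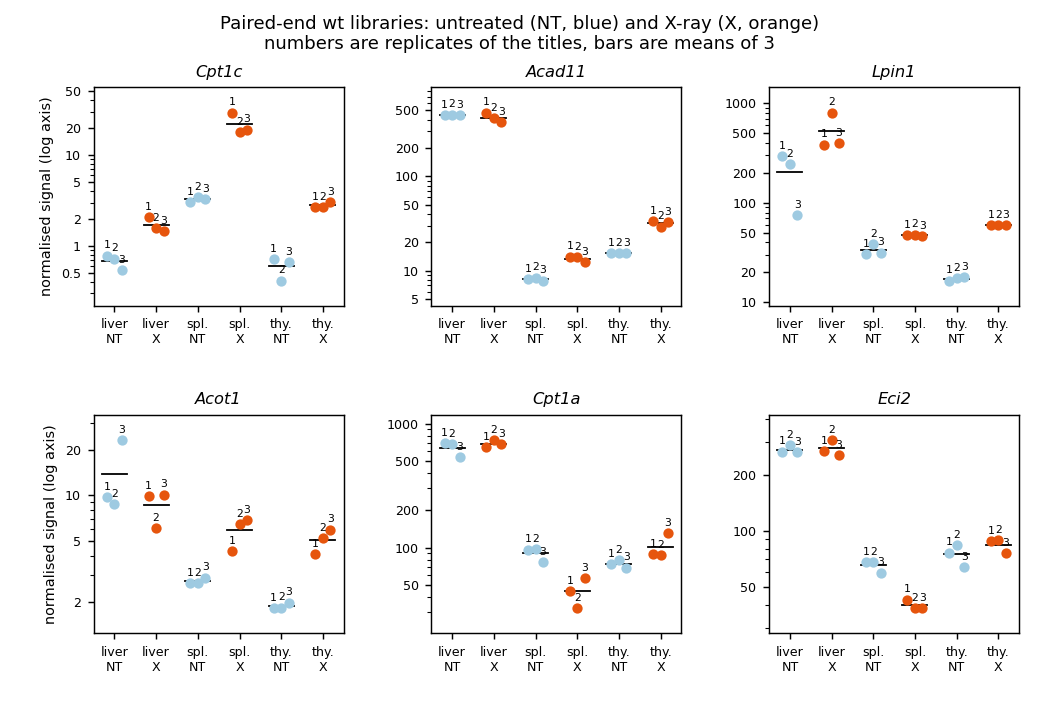
Normalised signal on a log axis of Cpt1c, Acad11, Lpin1, Acot1, Cpt1a and Eci2 in each paired-end wt library, untreated (NT) and X-ray (X), for liver, spleen (spl.) and thymus (thy.); numbers are replicates and bars are means of 3. Cpt1c, Acad11, Lpin1 and Acot1 rose in spleen and thymus, Cpt1a and Eci2 fell in spleen.

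The response to X-rays differed between tissues for 17 of the 33 members tested by a limma F test of the tissue by X-ray terms (adjusted p under 0.05), against 30.5% of all genes. Acad11 had the largest F among members (40.6, limma adjusted p = 5.5e-05), with -0.10 in liver, 0.68 in spleen and 1.04 in thymus. Cpt1c followed (22.8, limma adjusted p = 0.000645), with 0.90, 2.56 and 1.59. Cpt1a (17.7, limma adjusted p = 0.00159) had 0.11 in liver, -1.03 in spleen and 0.43 in thymus, and Ehhadh (20.5, limma adjusted p = 0.00093) had -0.01, -0.90 and 0.23. Lpin1, higher after X-rays by 1.5, 0.49 and 1.75, did not pass this test (limma adjusted p = 0.117). The 13 members that fell in spleen did not pass in thymus in either direction, and 5 that rose in thymus did not pass in spleen. The F test covers 3 tissues, so thymus was also set against spleen alone, a test chosen after seeing the data, in the same limma fit. Of all 33 members, 10 differed between spleen and thymus, against 9.54% of all genes. Among them were 9 of the 13 that fell in spleen, led by Ehhadh (thymus minus spleen 1.12 ± 0.18, limma adjusted p = 0.00101), Eci2 (0.88 ± 0.15, limma adjusted p = 0.0015) and Cpt1a (1.46 ± 0.26, limma adjusted p = 0.00176). Those 13 were picked by their fall in the same spleen libraries, so a difference from thymus was favoured in advance. Of the 5 that rose in thymus and did not pass in spleen, 0 passed this test of the difference; Plin2 was nearest (0.99 ± 0.30, limma adjusted p = 0.0503). With same-numbered libraries of 1 treatment as a block across tissues, 12 members differed between spleen and thymus, against 10.6% of all genes, Plin2 (limma adjusted p = 0.0159) and Acaa2 (limma adjusted p = 0.0286) being added.

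**Figure D4:**
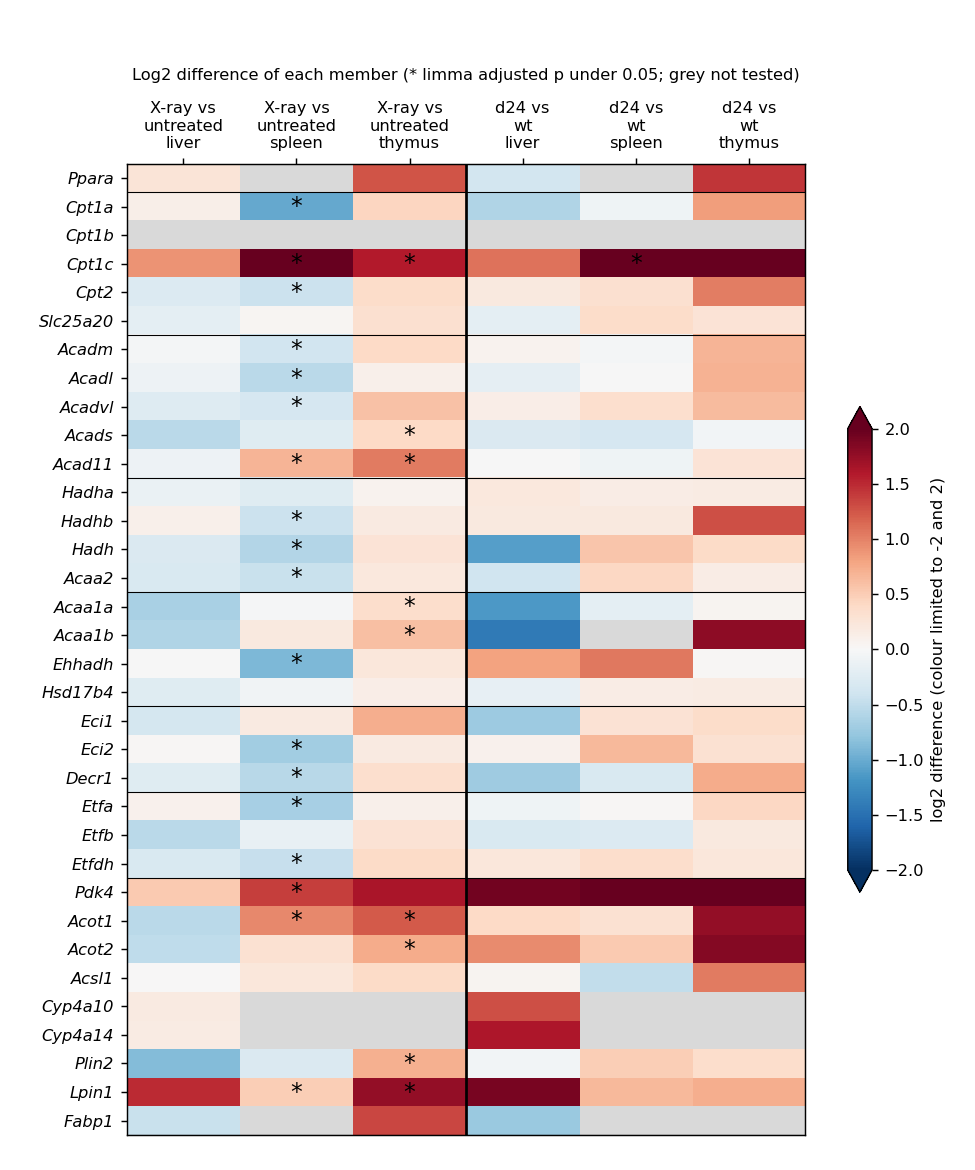
Log2 difference of each member (rows, by role) in the 3 X-ray comparisons (wt, paired-end) and the 3 d24 against wt comparisons (single-end), as colour from lower to higher, with marks on differences that passed limma at an adjusted p under 0.05 and grey where a member was not tested. Marked cells number 18 in X-ray spleen, 9 in X-ray thymus and 1 in d24 spleen.

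The single-end table compares d24 with wt, both titled X-ray. By the treatment entries, d24 liver and d24 thymus are controls set against X-rayed wt, while d24 spleen is X-rayed and set against control wt. By the titles all are X-rayed. With the labels in conflict, genotype and treatment cannot be told apart in each of the 3 tissues. Under the entries, a treatment contrast would run the opposite way in spleen. In liver 0 of 33 members passed in limma, where 0.526% of all genes did (0.277% higher and 0.248% lower). An unadjusted p under 0.05 was found for 12, against 13.4% of all genes. By edgeR 0 members were called, against 0.0803% of all genes, and by DESeq2 4, against 3.88%. The member median was -0.01, against -0.08 over all genes, with 16 differences above 0, against 43.6% of all genes, and 17 below. The groups did not overlap for 10 members, against 19.1%. By role, the 9 PPAR-alpha responsive members had a median of 0.94, the peroxisomal genes -0.65 and the genes for unsaturated chains -0.71; the difference between roles was not tested, and the members of a role went both ways (Ehhadh at 0.81 and Acaa1b at -1.42 among the peroxisomal genes).

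Ppara was 214, 395 and 501 in d24 and 532, 447 and 378 in wt liver (d24 minus wt -0.36 ± 0.32, limma adjusted p = 0.655), with overlap. Cpt1c was 3.68, 2.16 and 3.79 against 4.07, 1.66 and 0 (1.09 ± 0.79, limma adjusted p = 0.585), and the library at 0 allows a signal of up to 0.181, the worth of 3 reads. Acad11 was 297, 423 and 390 against 362, 394 and 351 (-0.01 ± 0.23, limma adjusted p = 0.992). None of the 3 genes separated d24 from wt.

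Lpin1 was 191, 588 and 33.1 in d24 against 38.3, 37.8 and 47.8 in wt liver (1.91 ± 0.78, limma adjusted p = 0.339), and d24 replicates 1 and 2 were high while replicate 3 was below wt. Without d24 replicate 3 the difference was 3.01 and passed (limma adjusted p = 0.00774). The next genes are named after their values were seen. Cyp4a14 was 1945, 6578 and 1227 against 832, 850 and 761 (1.62 ± 0.50, limma adjusted p = 0.204; DESeq2 adjusted p = 0.00136), and Pdk4 was 100, 625 and 61.8 against 38.6, 41.2 and 42.9 (1.93 ± 0.67, limma adjusted p = 0.256). Both were above wt in every d24 library, with d24 replicate 2 the highest. That library was the highest of its group for 8 of the 9 PPAR-alpha responsive members and for 20 of all 34.

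Hadh, the 3-hydroxyacyl-CoA dehydrogenase, was 658, 372 and 725 in d24 against 1051, 1242 and 1346 in wt liver (-1.10 ± 0.29, limma adjusted p = 0.137; DESeq2 adjusted p = 0.0362). Acaa1a was 146, 100 and 147 against 234, 257 and 393 (-1.15 ± 0.27, limma adjusted p = 0.106; DESeq2 adjusted p = 0.015). Fabp1 was 1557, 1265 and 1214 against 1754, 3221 and 2006 (-0.75 ± 0.29, limma adjusted p = 0.309). The 3 genes were lower in every d24 library than in every wt library. Hadh was the member that passed the F test of the tissue by d24 terms (12.5, limma adjusted p = 0.0411), at -1.10 in liver, 0.55 in spleen and 0.39 in thymus, where 0.988% of all genes passed; edgeR called 0 members in that test. The treatment entries run the opposite way in spleen, so if they hold, these terms carry treatment as well as genotype.

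**Figure D5:**
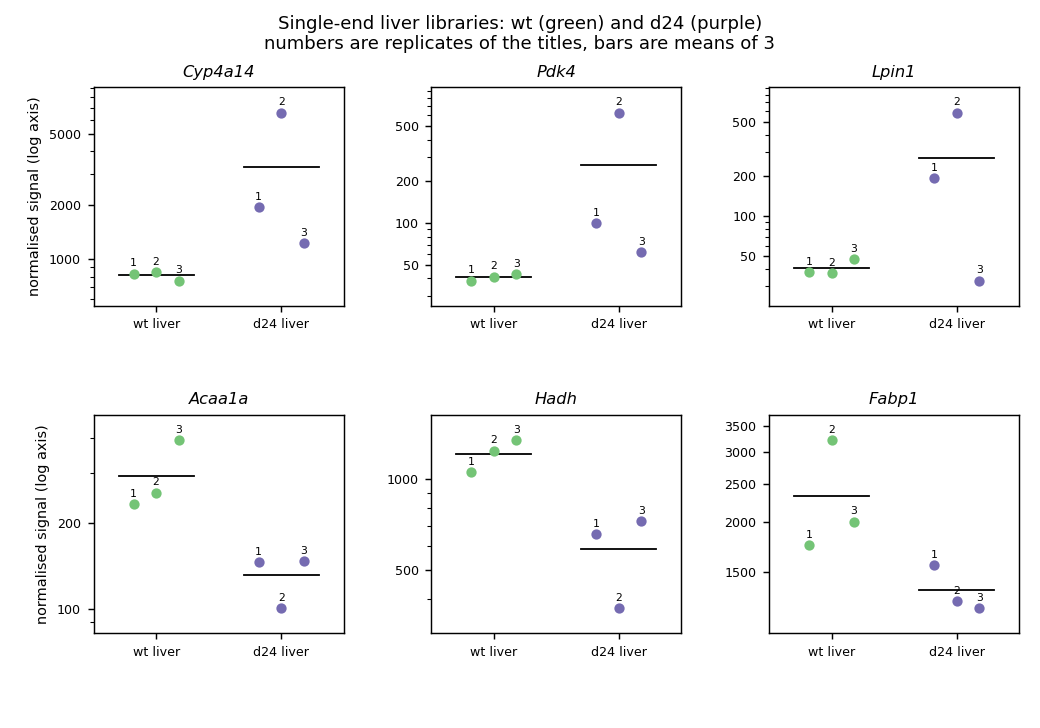
Normalised signal on a log axis of selected members in each single-end liver library titled d24 or wt, with replicate numbers and bars at the means of 3. D24 replicate 2 is highest for Cyp4a14, Pdk4 and Lpin1, and the d24 libraries are below the wt libraries for Hadh and Acaa1a.

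In the same liver libraries, 0 of 9 fasting and gluconeogenesis genes passed in limma, 8 had an unadjusted p under 0.05 and their median was 1.14. The metallothioneins Mt2 (6.29) and Mt1 (4.39), which respond to metals and stress hormone, were higher in d24. B cell marker sums were 7.30 to 8.29 in d24 and 27.2 to 79.1 in wt (1 of 5 tested lower, 5 unadjusted), and T cell sums were 16.6 to 21.9 and 35.9 to 80.0 (1 of 8 lower). Erythroid sums were 136 to 454 in d24 and 314 to 2317 in wt (1 of 9 lower, 3 unadjusted), and white adipocyte sums were 150 to 554 and 82.3 to 134 (0 of 3 tested passing, 1 unadjusted), with Adipoq, Cfd, Plin1 and Retn at 0 in both groups. Of the 10 p53 targets 0 passed in limma, 7 had an unadjusted p under 0.05 and all 10 were above 0, with a median of 0.76. Xist, read here as a sign of female tissue, was above 100 in 2 d24 and 1 wt liver libraries. The part of sex and these cells in the members' differences was not tested beyond these values.

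In spleen 1 of 28 members was higher in d24 and 0 lower, against 1.04% and 1.24% of all genes (2.28% in either direction). An unadjusted p under 0.05 was found for 4 members, against 13.3% of all genes, groups without overlap for 5, against 19.3%, and differences above 0 for 19, against 46%. Cpt1c was 17.4, 26.3 and 30.8 in d24 against 4.28, 5.95 and 4.48 in wt (2.20 ± 0.38, SE, n = 3 and 3, limma adjusted p = 0.00964), without overlap. Side by side with the paired-end wt spleen, which was normalised separately, untreated libraries had 3.03 to 3.43 and irradiated ones 17.9 to 29.3. The wt spleen libraries carry the treatment entry control and low Cdkn1a, within the range of untreated paired-end libraries. The call ended without d24 replicate 2 (2.15) and with Xist as a covariate (1.96); Xist was above 100 in 3 d24 and 1 wt spleen libraries.

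Pdk4 was 16.9, 41.7 and 9.82 in d24 against 4.15, 6.61 and 2.13 in wt spleen (2.15 ± 0.55, limma adjusted p = 0.0702), with no overlap and a wide spread in d24. Lpin1 was 45.2, 44.8 and 43.6 against 41.1, 29.1 and 19.1 (0.64 ± 0.32, limma adjusted p = 0.425), and the lowest d24 library was just above the highest wt one. Acad11, which rose with X-rays in wt spleen, was 6.17, 6.28 and 7.42 against 8.2, 8.02 and 5.31 (-0.09 ± 0.41, limma adjusted p = 0.951), with overlap. Ppara was at most 0.837 in these libraries and was not tested. Of the 10 p53 targets 7 were higher in d24 spleen (10 unadjusted), with a median of 1.88. Ppard, the sister receptor of PPAR-alpha, was higher at 2.08. B cell sums were 61.9 to 321 in d24 and 468 to 625 in wt (1 of 6 lower), and acinar pancreas markers summed to 1086 in wt replicate 3 and at most 31.0 elsewhere; their part was not tested.

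In thymus 0 of 30 members passed in limma, where 0.00724% of all genes did. An unadjusted p under 0.05 was found for 10, against 9.83%, and the groups did not overlap for 9, against 16.6%. By edgeR 0 members were called, against 0.0145% of all genes, and by DESeq2 3, against 1.93%. Of the 30 differences 29 were above 0, against 48.5% of all genes, with a median of 0.52 against -0.02. Cpt1c was 5.14, 3.93 and 4.97 in d24 against 0.353, 0 and 0.384 in wt (2.83 ± 0.58, limma adjusted p = 0.214; DESeq2 adjusted p = 0.0051). The groups did not overlap, Cpt1c reached the filter through the d24 libraries alone, and the wt library at 0 allows a signal of up to 0.0926. Acad11 was 14.7, 17.4 and 27.5 against 10.7, 17.3 and 21.0 (0.28 ± 0.34, limma adjusted p = 0.81), Lpin1 was 15.9, 19.1 and 32.1 against 10.9, 9.97 and 19.1 (0.72 ± 0.36, limma adjusted p = 0.557), and Ppara was 0.717, 2.29 and 5.09 against 3.21, 0 and 0.0295 (1.42 ± 0.91, limma adjusted p = 0.642). All 3 overlapped between d24 and wt. Of the 9 p53 targets tested, of 10 listed, 0 passed in limma, 7 had an unadjusted p under 0.05 and all 9 were above 0, with a median of 1.17; Cdkn1a was low in wt thymus too, although those libraries carry the X-ray entry.

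D24 thymus replicate 3 stood above the other 2 in 29 of the 33 members with a signal of at least 1 in the group. Its member median against wt was 1.06 with 30 of 30 above 0, beside 0.14 (20 of 30) and 0.38 (27 of 30) for replicates 1 and 2. Markers of other tissues were highest there too: hepatocyte sums were 57.7, 158 and 1930 in d24 and 28.1 to 39.9 in wt, erythroid sums 11.2, 9.93 and 3622 against 41.6 to 47.9, and brown adipocyte sums 12.2, 65.3 and 116 against 70.3, 3.46 and 10.5. None of these markers passed in limma (0 of 7, 0 of 5 and 0 of 5 tested; 5, 0 and 1 unadjusted). Ackr4, which overlaps Acad11, reached 138 in d24 thymus and at most 8.95 in wt. Their part in the members' differences was not tested.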

How the data were processed

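Gene tables of 18 paired-end and 18 single-end mouse libraries were used. Per the labels' protocols, tissue was kept in RNAlater, RNA was extracted with RNeasy Mini and libraries were made with TruSeq Stranded Total RNA. The deposited values are a normalised signal per gene, made by the authors with edgeR on mm10, per the submitters' processing notes; the sources used here do not name the aligner, the counting tool or the strand setting. Each value is a whole number of reads (100% of values within 0.01 of a step) times a factor per library, so the signal is reads scaled to library size and a composition factor, and 1 read was worth 0.00991 to 0.0377 in paired-end and 0.0171 to 0.0828 in single-end libraries. Of the rows, 18380 of 19001 and 17186 of 17697 matched a symbol. A further 18 columns matched no library of the series and were not used. The planning had assumed scaled counts (CPM) and its test was kept.

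Tables were analysed separately with limma 3.58.1 (R 4.3.3, trend) on log2(signal + 0.5), for genes that reached a signal of 1 in 3 or more libraries, with Benjamini-Hochberg adjustment and a threshold of 0.05. Interaction tests used 18 libraries. Recovered reads were tested with edgeR 4.0.16 and DESeq2 1.42.0, and the scripts were tested on simulated data. Values per library are given for members that passed (up to 8 per comparison, by p), for Ppara and for Cpt1c, Acad11 and Lpin1. Members and lists were chosen with earlier results of these data known. Same-numbered libraries deviated together in X-ray spleen (correlations 0.18 to 0.24), where numbers count as pairs by these correlations, not by the labels. In X-ray thymus these correlations were 0.06 to 0.48. A signal at 0 allows up to 3 reads, which covers counting error only. Sequences come from RefSeq, GRCm38.p6, with exons from GENCODE M21.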

Additional observations from a re-analysis of the deposited data

Results flagged for a closer look

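The members below had a response to X-rays that differed between liver, spleen and thymus in the limma F test, each with its F statistic. In descending order these were Acad11 (40.6), Cpt1c (22.8), Ehhadh (20.5), Eci2 (18.9), Cpt1a (17.7), Plin2 (13.5), Acaa1a (12.5), Etfdh (11.8), Acaa1b (11.8), Acot1 (11.7), Etfa (9.51), Acadvl (9.22), Acads (8.9), Hadh (8.01), Acot2 (7.33), Cpt2 (6.39) and Decr1 (5.84). Plin2 was at -0.86 in liver, -0.28 in spleen and 0.70 in thymus, and Acaa1a at -0.64, -0.03 and 0.35. Acaa1b was at -0.60, 0.20 and 0.60, and Acads at -0.53, -0.25 and 0.40. These 4 genes were lowest in liver and highest in thymus. Etfdh, Acadvl, Hadh and Cpt2 were below 0 in liver and spleen and above 0 in thymus. For d24 against wt, Hadh had an F of 12.5.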

How the results depend on the processing

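Between settings, 694 of the values of single members kept their direction and side of the threshold, 43 lost the call, 8 gained it and 6 changed sign. Those 6 were Acad11 in d24 liver, at -0.01 as reported and 0.055 with median-ratio scaling, 0.075 with edgeR, 0.067 with DESeq2 and -0.11 to 0.14 leaving out 1 library (above 0 without wt replicate 2 or d24 replicate 1), and Acad11 in d24 spleen, at -0.28 to 0.014 leaving out 1 library (above 0 without wt replicate 1).

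Counts of members that passed moved as follows. They stand without the shares of all genes at the same settings, so whether members moved more than other genes is not shown. In X-ray liver, 1 fit of all 18 libraries gave 2 higher and 4 lower, DESeq2 gave 1 and 1, and leaving out 1 library gave 0 to 11 lower. In X-ray spleen the 5 higher became 3 in 1 fit and 4 to 6 leaving out 1 library, and the 13 lower became 7 to 14. In X-ray thymus the 9 higher became 15 with the replicate block and 6 to 11 leaving out 1 library. There same-numbered libraries correlated at 0.06 to 0.48 and unlike numbers at -0.37 to 0.06, and the labels do not name pairs. In d24 liver DESeq2 gave 2 higher and 2 lower, 1 fit gave 1 lower, and leaving out 1 library gave 0 to 2 higher. In d24 spleen the 1 higher became 2 with the replicate block, 2 with DESeq2, 0 with Xist as a covariate and 0 to 2 leaving out 1 library. In d24 thymus 1 fit and DESeq2 each gave 3 higher and leaving out 1 library 0 to 1. The 17 members that differed between tissues after X-rays became 14 to 21 leaving out 1 library, and, in alternatives chosen after seeing the data, 10 when thymus was set against spleen alone (12 with the block) and 19 with same-numbered libraries of 1 treatment as a replicate block across tissues. Those libraries correlated at -0.06 to 0.47 (11 of 18 pairs above 0.1, against 3 of 36 pairs of unlike numbers) and share their Xist pattern, but the labels do not say that they share an animal. The 1 for d24 became 0 with a pseudocount of 0.1, median-ratio or quantile scaling, no trend, the replicate block, Xist or edgeR, and 0 to 2 leaving out 1 library. The cause was not tested. The block changed no other count by over 1.5 times. Outside X-ray spleen and X-ray thymus, same-numbered libraries of the groups compared did not all deviate together.

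For untreated tissues, an alternative chosen after seeing the data, scaling to library size without the composition factor, gave 1 member lower in liver than in thymus (Cpt1c), and 6 higher and 21 lower in spleen than in thymus. Over all genes, edgeR called 32, 5272 and 2989 in X-ray liver, spleen and thymus and 11, 145 and 2 in d24 liver, spleen and thymus; limma called 32, 5351 and 2945, and 72, 309 and 1. DESeq2 called 631, 5881 and 3677 in X-ray liver, spleen and thymus, and 531, 594 and 266 in d24 liver, spleen and thymus. Members with few reads, such as Cpt1c in liver, have the widest counting error.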
